A study of Mus musculus with 8 samples.

Results

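The CCN family is a group of 6 secreted matricellular genes, Ccn1 to Ccn6, written in the deposited table under the older names Cyr61, Ctgf, Nov, Wisp1, Wisp2 and Wisp3. They were taken by name from a table of 28295 genes measured in white adipose tissue, and all 6 were listed. The family was picked for description with its difference between the groups already known, so the values below describe the members and no test is read from them. RNA came from the epididymal white fat of male mice on a Western diet for 8 weeks, collected after a fast of 6 h. The WT group (Cul3-flox/flox, 4 libraries, WT1 to WT4) carried Cul3 alleles flanked by loxP sites on both chromosomes and no Cre. The KO group (AdipoQ-Cre;Cul3-flox/flox, 4 libraries, KO1 to KO4) carried the same alleles and a Cre recombinase driven by AdipoQ, a gene of adipocytes, so that cells of the fat without AdipoQ expression are not targeted. The labels used here give neither strain background nor age. The labels do not tie libraries to animals, and p-values measure the spread between these samples, which may be in part technical.

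CCN proteins are made and secreted into the matrix, where they bind integrins, syndecans, LDL receptor-related proteins and growth factors, and change how cells adhere, migrate and respond to signals. Most are built from an IGFBP-like module, a von Willebrand factor C module, a thrombospondin type 1 module and a C-terminal cystine knot, and CCN5 lacks the last of these. Ccn1 and Ccn2 are textbook targets of YAP and TAZ with TEAD factors, of SRF and of TGF-beta, while Ccn4 and Ccn5 were named for their induction by Wnt1. In fat, CCN5 is known as a protein of mesenchymal precursor cells, and CCN3 and CCN4 have been described as adipokines.

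The missing module could be read in the gene structure. In the GENCODE M21 annotation of mm10, the principal transcripts of Ccn1, Ccn2, Ccn3, Ccn4 and Ccn6 had 5 coding exons, and that of Ccn5 had 4. The coding sequence of Ccn5 was 756 bases (251 codons before the stop) against 1047 to 1140 bases in the other members. In-frame cysteine codons marked the modules. There were 12 in coding exon 2, 10 in coding exon 3 and 6 in coding exon 4 of Ccn1 to Ccn5, and 10 in coding exon 5 of every member that has one. Ccn6 differed in coding exon 3, the exon of the von Willebrand factor C module, which held 6 cysteine codons instead of 10, and in coding exon 2, which held 14. Shown here are the last coding exon of Ccn5, which ends in the thrombospondin module, and that of Ccn2, which encodes the cystine knot. They run 5′ to 3′ on the coding strand with in-frame cysteine codons in capitals (Ccn5 at chr2:163832217-163832437 and Ccn2 at chr10:24597315-24597611, mm10, both on the plus strand):
Ccn5: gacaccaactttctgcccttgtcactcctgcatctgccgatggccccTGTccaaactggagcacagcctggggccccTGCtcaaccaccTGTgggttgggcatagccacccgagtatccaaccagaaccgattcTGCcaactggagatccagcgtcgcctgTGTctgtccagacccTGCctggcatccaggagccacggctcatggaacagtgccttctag
Ccn2: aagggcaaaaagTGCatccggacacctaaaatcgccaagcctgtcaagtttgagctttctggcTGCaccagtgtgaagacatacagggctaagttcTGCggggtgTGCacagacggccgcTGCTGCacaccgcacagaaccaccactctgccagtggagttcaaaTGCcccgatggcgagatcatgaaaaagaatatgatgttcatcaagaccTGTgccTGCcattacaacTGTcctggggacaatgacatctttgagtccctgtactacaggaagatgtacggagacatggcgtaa
The Ccn5 exon has 6 capital triplets and closes with the stop codon tag after 221 bases. That of Ccn2 carries 10 over 297 bases, its own stop codon included. The longest run of identical bases between the coding sequences of any 2 members was 18, between Ccn1 and Ccn2.

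**Figure D1:**
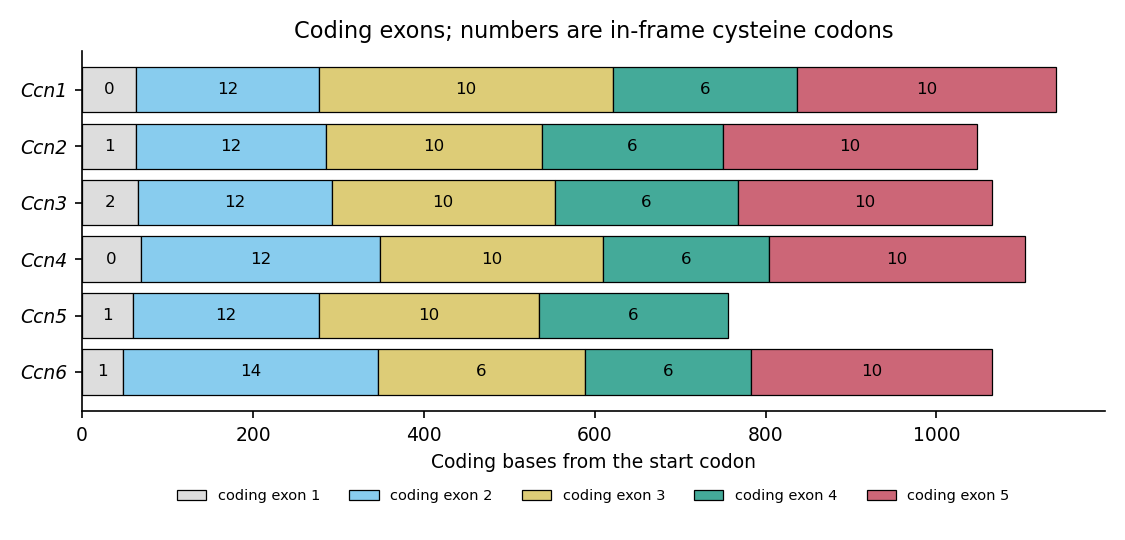
Coding exons of the principal transcript of each CCN gene, drawn to scale in coding bases from the start codon; the number in each box counts in-frame cysteine codons. Ccn5 ends after coding exon 4, without the exon that holds 10 cysteine codons in the other members.

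The level of Cul3, the targeted gene, did not separate the groups. It stood at 11.2 ± 1.13 FPKM (fragments per kilobase of gene and per 1000000 mapped fragments) in WT and 12 ± 1.28 in the KO group (SD, n = 4 each), with a log2 fold change of 0.09 ± 0.10 (limma adjusted p = 0.520). Scaled to a common sum per library it was 0.37 (adjusted p = 0.0477). A value per gene also counts exons outside a deleted part. The groups are therefore called WT and KO-labelled, and every direction rests on the labels. Depth, read back from the steps of the low values, was 15.2 to 19.7 M reads in listed genes per library. These made up 74.1% to 78.7% of the denominator of FPKM in WT, and 62.6% to 66.1% of it in the KO-labelled group. Libraries with transcripts of other tissues stood out. The summed level of 12 liver markers was 525 FPKM in WT2 and 145 in WT1 against 8 to 39.9 in the other libraries. Epididymis markers summed to 285 FPKM in KO1 and 71.8 in WT2 against 0.0949 to 11 elsewhere. The adipocyte markers, which check the labelled tissue, summed to 5280 to 8320 FPKM in WT, against 3160 to 4310 in the KO-labelled group. No marker on that list was at 0 in any library.

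Ccn5 (ENSMUSG00000027656, chromosome 2, 163820861 to 163833146, plus strand) was the member with the largest difference. WT1 to WT4 held 6.91, 10.8, 5.33 and 11.3 FPKM, and KO1 to KO4 held 131, 128, 104 and 64.1 FPKM. The lowest KO-labelled library was above the highest WT library by a wide margin, and KO4 was the low one of its group. The group means were 8.58 ± 2.92 and 107 ± 31.0 FPKM (SD, n = 4), a ratio of 12.4. On the scale of log2(FPKM + 0.5), the difference between KO-labelled and WT was 3.57 ± 0.29 (limma standard error), the fourth highest of the 14400 genes with a mean of at least 0.5 FPKM. The 0.5 added shrinks differences of genes near 0, so this place depends on it. Behind these values stood 235 to 534 reads per WT library and 3051 to 7348 per KO-labelled library. In the ranking of all listed genes by FPKM within a library, Ccn5 moved from between places 3081 and 5820 in WT to between places 149 and 365. The log2 difference was 3.37 to 3.79 when 1 library was left out, and 3.64 without both WT1 and WT2.

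Ccn1 and Ccn2, the adhesion proteins of the family that respond fastest to serum and stretch, differed from each other. Ccn1 (ENSMUSG00000028195, chromosome 3, 145646976 to 145649981, minus strand) measured 17.1, 26.9, 16.7 and 33.2 FPKM across WT1 to WT4, against 27.3, 26.6, 18 and 19.2 across KO1 to KO4. These ranges overlap almost entirely, with the lowest and the highest of the 8 values both in WT. The means were 23.5 ± 8.01 and 22.8 ± 4.85 FPKM, and the log2 difference was -0.01 ± 0.24. Scaled to a sum of 1000000 per library, it was 0.27.

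Ccn2 (ENSMUSG00000019997, chromosome 10, 24595442 to 24598683, plus strand) measured 3.96, 8.39, 6.31 and 10.9 FPKM in WT1 to WT4. In KO1 to KO4 it measured 13, 10, 16 and 17.7 FPKM. The KO-labelled values lay higher, but WT4 was above KO2, so the groups overlap. The means were 7.40 ± 2.96 and 14.2 ± 3.41 FPKM, a ratio of 1.92, with a log2 difference of 0.95 ± 0.29. Without WT1 or without both WT1 and WT2 this was 0.70, and without WT4 it was 1.15. Ccn2 shares 665 exonic bases with Gm15270, a transcript on the opposite strand. Whether reads were counted by strand is not stated, so reads of the 2 genes cannot be told apart. The level listed for Gm15270 was at most 0.1 FPKM in any library.

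Ccn3 (ENSMUSG00000037362, chromosome 15, 54745702 to 54754039, plus strand), a member with growth-restraining actions in many cells, differed between the groups by less than its spread within them. It measured 2.64, 4.02, 5.17 and 2.62 FPKM across WT1 to WT4, against 3.59, 2.08, 4.23 and 4.29 across KO1 to KO4. The range of one group covers most of the other, and the highest value was in WT3. The means were 3.61 ± 1.23 and 3.55 ± 1.03 FPKM, with a log2 difference of -0.02 ± 0.26 that became 0.25 when libraries were scaled to a sum of 1000000.

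Ccn4 and Ccn6 lay under the mean of 0.5 FPKM that the fit across genes required, so 4 of the 6 members were in it. Ccn4 (ENSMUSG00000005124, chromosome 15, 66891320 to 66923201, plus strand), the Wnt1-inducible member known as an adipokine, measured 0.120, 0.105, 0.188 and 0.197 FPKM in WT1 to WT4. In KO1 to KO4 it measured 0.598, 0.271, 0.386 and 0.261 FPKM. The groups do not overlap, though KO4 and WT4 are close. The ratio of the means, 0.153 ± 0.0469 and 0.379 ± 0.157 FPKM, was 2.48. It rests on 82 reads over the 4 WT libraries (95% exact Poisson interval 65.2 to 102, counting error only) and 222 over the KO-labelled ones (194 to 253). The log2(FPKM + 0.5) difference of 0.42 understates a gene this low, and voom on the reads without a filter gave 1.29 ± 0.39.

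Ccn6 (ENSMUSG00000062074, chromosome 10, 39150970 to 39163794, minus strand), known from a skeletal disease of cartilage, was close to the detection limit. WT1 to WT4 held 0, 0.0588, 0.0922 and 0.229 FPKM, and KO1 to KO4 held 0.0484, 0.259, 0.116 and 0.171 FPKM. The groups overlap, and no difference was detectable with 13 reads in WT (exact Poisson interval 6.92 to 22.2) and 21 in the KO-labelled libraries (13 to 32.1). Of its exonic bases, 482 are shared with Tube1 on the opposite strand, itself listed at 0.133 to 0.221 FPKM, so part of these reads may belong to that gene.

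**Figure D2:**
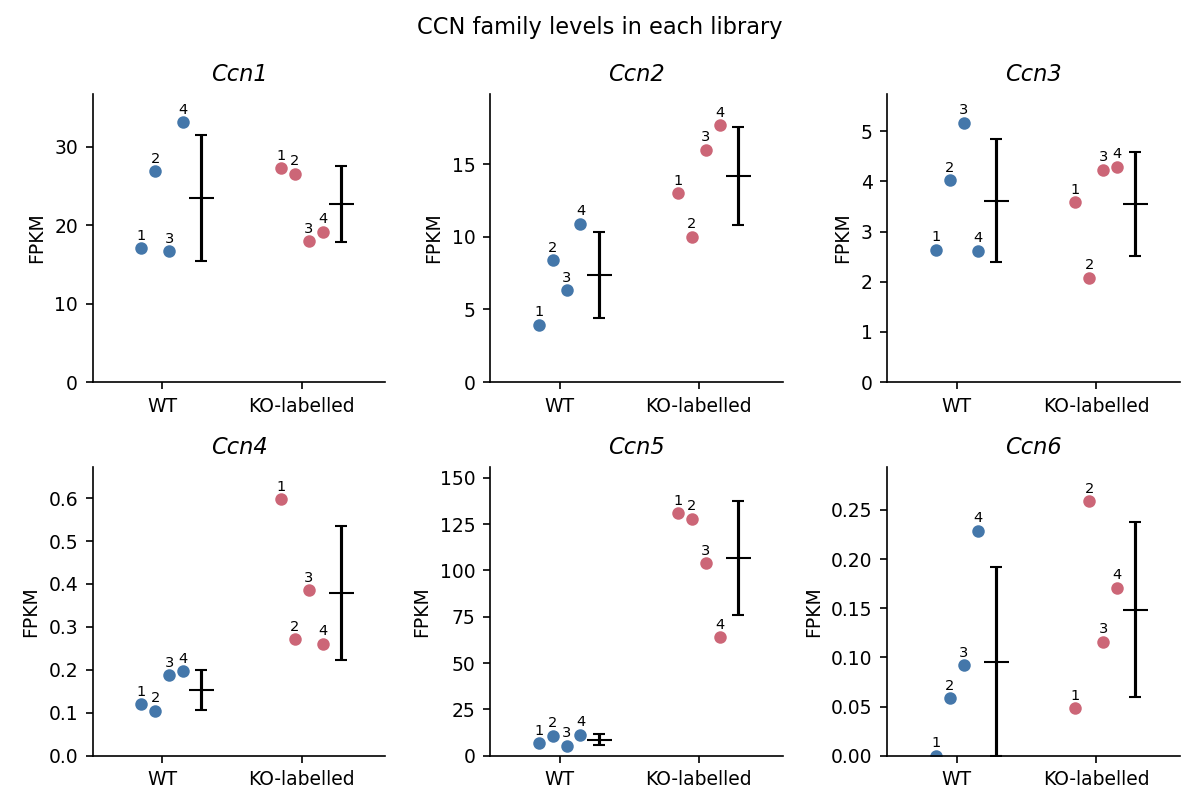
FPKM of each CCN gene in every library, WT in blue and KO-labelled in red, with the replicate number beside each point and the mean ± SD (n = 4) beside each group (the lower bar stops at 0). Ccn5 separates the groups at 5.33 to 11.3 against 64.1 to 131 FPKM, while the points of Ccn1, Ccn2, Ccn3 and Ccn6 overlap.

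Across the family, Ccn5 and Ccn4 were the members with every KO-labelled library above every WT library, a pattern shown by 8.65% of all listed genes. Of the 4 members in the fit across genes, Ccn5 and Ccn2 were called higher at an adjusted p under 0.05, beside 11.7% of the 14400 genes tested (18.6% were called lower, and 30.4% in either direction). These counts describe members chosen on this contrast, and nothing is read from them. The call of Ccn2 was lost without any one of WT1, WT2, WT3, KO1, KO3 or KO4, without both WT1 and WT2, and in both fits with no filter on low values.

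The order of the members by level differed between the groups. FPKM is a level per exon length of the gene, so members can be set side by side only roughly. Isoform use, and the exonic bases that Ccn2 and Ccn6 share with opposite-strand genes, were not taken into account. In WT the order by mean was Ccn1, Ccn5, Ccn2, Ccn3, Ccn4 and Ccn6. There the ranges of Ccn5 and Ccn2, of Ccn2 and Ccn3, and of Ccn4 and Ccn6 overlapped, while Ccn1 stood above Ccn5 in 4 of 4 libraries without overlap. In the KO-labelled libraries the order was Ccn5, Ccn1, Ccn2, Ccn3, Ccn4 and Ccn6, and no neighbours overlapped.

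Summed over the family, WT1 to WT4 held 30.8, 50.2, 33.8 and 58.4 FPKM, and KO1 to KO4 held 176, 167, 142 and 106 FPKM. Without Ccn5, the sums were 34.7 ± 10.6 FPKM in WT and 41 ± 2.64 in the KO-labelled libraries (SD, n = 4). The difference in the family's sum thus lay mostly in Ccn5, whose share went from 19.8% ± 2.96 of the summed FPKM to 71.1% ± 7.21. The share of Ccn1 went from 53.8% ± 3.26 to 15.6% ± 2.26. The ratio of Ccn5 to Ccn1 within a library does not depend on how libraries are scaled. It was 0.404, 0.401, 0.319 and 0.340 in WT1 to WT4, and 4.80, 4.82, 5.75 and 3.34 in KO1 to KO4. No KO-labelled ratio came near the WT ratios. Among WT libraries, Ccn1, Ccn2 and Ccn5 were each highest in WT4 and next highest in WT2. There the ratio of Ccn5 to Ccn1 varied less (coefficient of variation 11.7%) than either gene alone (34.1% for Ccn1 and 34.0% for Ccn5). The KO-labelled libraries did not repeat this. Their ratio varied by 21.4%, against 21.3% for Ccn1 and 29.1% for Ccn5, and Ccn2 was highest in KO4, where Ccn5 was lowest.

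**Figure D3:**
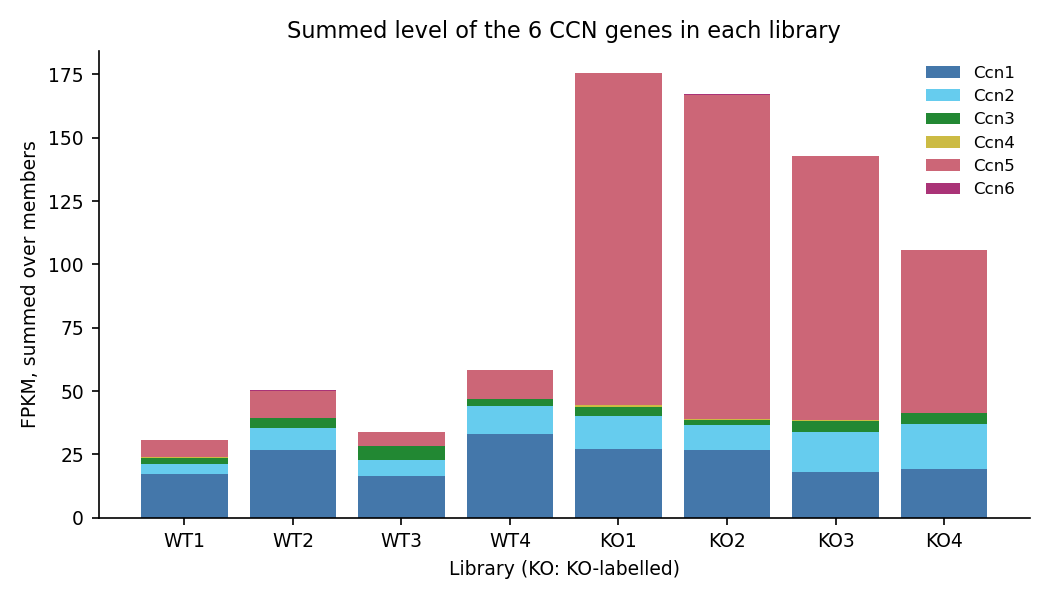
Stacked FPKM of the 6 CCN genes in each library. The Ccn5 segment makes up a mean of 19.8% of the bar in WT and 71.1% in the KO-labelled libraries, while the remainder is 34.7 and 41 FPKM on average.

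Markers of several cell types differed between the groups as well, and in bulk tissue fewer cells of a type and less RNA per cell cannot be told apart. Over all genes tested, 11.7% rose and 18.6% fell, and the counts of every cell type list stand beside these shares. Fibroblast and progenitor markers, of cells in which Ccn5 is known to be made, did not rise as a list. Of 18 tested, 2 rose and 6 fell. Their summed level was 531 to 594 FPKM in WT1 to WT3 and 806 in WT4, against 513 to 546 in the KO-labelled group. Ly6a, a surface protein of progenitors, rose by 0.58 ± 0.08 (limma adjusted p = 0.00128), while Sema3c and Cd55, of interstitial progenitors, fell by 1.09 and 1.01 on the log2 scale. Col15a1, a basement membrane collagen, fell by 0.98, and Dcn, the matrix proteoglycan decorin, stood at 94.6 ± 16.7 and 122 ± 11.5 FPKM without passing the test. With libraries scaled to a common sum, 4 rose and 3 fell. Of 11 mesothelial markers tested, 0 passed limma's test (1 was higher at an unadjusted p under 0.05, and 0 passed by voom). That count depended on the setting: 1 marker was called higher under 7 of 21 alternatives, and 1 was called lower under 2. The most abundant were Upk3b, a uroplakin, with a log2 difference of 0.31 ± 0.37 and Msln, mesothelin, with -0.49 ± 0.34 (-1.08 to -0.13 over the alternatives). The list summed to 23 to 71.9 FPKM in WT, against 50.8 to 76.9 in the KO-labelled group. Among 13 smooth muscle and pericyte markers, 4 rose and 3 fell, with sums of 209 to 303 and 190 to 216 FPKM. Cnn1, a calponin of contractile cells, rose from 0.321 ± 0.0767 to 2.41 ± 0.805 FPKM, and Des, the filament protein desmin, from 5.50 ± 0.683 to 10.3 ± 0.598. Lmod1, a leiomodin of smooth muscle, rose by 0.78 ± 0.14, and Kcnj8, a potassium channel of pericytes, fell from 11.8 ± 2.15 to 5.79 ± 0.328 FPKM. The most abundant markers did not pass the test: Acta2, smooth muscle actin, had a log2 difference of -0.43 ± 0.24, and the pericyte gene Rgs5 one of -0.27 ± 0.16, which was 0.006 when libraries were scaled to a sum of 1000000.

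Other cell classes moved with Ccn5 or against it. Macrophage markers included 6 that rose, of 13 tested, and 0 that fell (also 0 at an unadjusted p under 0.05 and by voom). The count was 12 without WT4, 9 without KO4 and 3 without any other single library. Fcgr1, an Fc receptor, rose by 2.17 ± 0.28, Aif1 by 1.54 ± 0.21, Cd14 by 1.46 ± 0.29 and the mannose receptor Mrc1 by 1.29 ± 0.34. The most abundant were Lyz2, lysozyme, which did not pass (0.58 ± 0.41), and the complement gene C1qb, which rose by 1.15 ± 0.33. The calls of Mrc1 and C1qb were lost under 9 and 10 of 21 alternatives. The markers' sum was 564 to 664 FPKM in WT1 to WT3 but 1570 in WT4. In KO1 to KO3 it was 1310 to 1840, and in KO4 it was 781. Across KO1 to KO4 the macrophage sums (1840, 1750, 1310 and 781 FPKM) had the same order as Ccn5 (131, 128, 104 and 64.1). In WT1 to WT4 the sums were 664, 572, 564 and 1570 FPKM. There WT4 was highest and WT3 lowest for both, but WT2 was above WT1 for Ccn5 and below it for the sum. KO4 had a lower macrophage sum than WT4, and there Ccn5 stood at 64.1 FPKM against 11.3 in WT4. Of 12 endothelial markers, 10 fell, with sums of 297 to 413 and 201 to 237 FPKM. Robo4, Egfl7, Cdh5 and Esam fell by 0.85, 1.26, 0.89 and 0.67 on the log2 scale, and Cldn5, of endothelial tight junctions, by 1.03. Of 12 adipocyte markers, 11 fell. Lep, leptin, fell from 688 ± 106 to 67.8 ± 11.1 FPKM, and Adipoq, the adiponectin gene whose promoter drives the Cre, from 628 ± 127 to 314 ± 44.5. The lipid droplet gene Cidec fell by 1.82 on the log2 scale, the adipocyte factor Cebpa by 0.99 and the fatty acid carrier Fabp4 by 0.86. In both lists 0 rose, in limma, at an unadjusted p under 0.05 and by voom alike. Under 1 of 21 alternatives, a fit without 1 library, 1 adipocyte marker was called higher. None of the markers on these lists of the fat's own cells was at 0 in any library. Of 11 liver markers tested, 4 fell (Ttr, Apoa2, Fabp1 and Ahsg), while Alb did not pass. That count was 0 by voom and 0 without WT1, without KO3 or without KO4, 1 without KO2, and 10 without WT4. Of 5 epididymis markers tested, among them Crisp1 and Spink8, 0 passed in limma or by voom (0 at an unadjusted p under 0.05), with 7 of the 8 in the table at 0 in at least 1 library. The part of these cells in the levels of Ccn5 was not tested.

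Genes for receptors and partners through which CCN proteins act did not move in 1 direction. Of 17 tested, 3 rose and 3 fell, beside 11.7% and 18.6% of all genes tested, with a median log2 fold change of 0.09 beside -0.02 over all genes tested. Sdc4, the heparan sulfate proteoglycan syndecan-4, a co-receptor for CCN1 and CCN2, measured 8.12, 12.1, 9.76 and 15.7 FPKM in WT1 to WT4. In KO1 to KO4 it measured 24.6, 20.8, 22.1 and 24 FPKM. The groups do not overlap, with a log2 fold change of 1.01 ± 0.18 (limma adjusted p = 0.00395). Bgn, the matrix proteoglycan biglycan, rose from 79.5 ± 26.8 to 202 ± 11.9 FPKM (1.40 ± 0.21). Lrp1, an endocytic receptor that takes up CCN2, rose by 0.56 ± 0.16, although KO4 (57.7 FPKM) was below WT4 (63.7). Itga6, the alpha chain of the laminin receptor that binds CCN1, fell from 32.6 ± 4.06 to 18.1 ± 1.56 FPKM (-0.83 ± 0.11, limma adjusted p = 0.000896). Among the integrin chains of fibroblasts, Itgb1 (122 ± 9.97 and 111 ± 7.38 FPKM) and Itgb5 (64.0 ± 3.44 and 78.2 ± 8.26) did not pass the test. Hspg2 (-0.38), the basement membrane proteoglycan perlecan, and the receptor gene Notch1 (-0.36) fell, and the call of Hspg2 was lost when libraries were scaled to a sum of 1000000. That scaling gave 7 genes higher and 1 lower in place of 3 and 3.

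Transcriptional regulators of Ccn1 and Ccn2 were counted within a wider list of 19 genes around the Hippo pathway. Of these, 5 fell and 1 rose, beside 18.6% and 11.7% of all genes tested. Their median log2 fold change was 0.04, beside -0.02 over all genes tested. Wwtr1, which encodes the coactivator TAZ, measured 49.3, 40.7, 44.2 and 36.3 FPKM across WT1 to WT4, against 21.6, 21, 22.2 and 25.3 in KO1 to KO4. Every KO-labelled library was below every WT library, with a log2 fold change of -0.90 ± 0.11 (limma adjusted p = 0.000655). Yap1 fell from 8.42 ± 0.654 to 5.32 ± 0.272 FPKM (-0.61 ± 0.08). Amotl1, an angiomotin-like protein that holds YAP in the cytoplasm, fell by 0.79 ± 0.09. Tob1, a growth-restraining protein on the list but not of the core pathway, fell by 0.99 ± 0.11. Amot, the related angiomotin, rose by 0.45 ± 0.15. Tead1 measured 7.22 ± 1.15 and 7.21 ± 1.19 FPKM. Of the other TEAD genes, Tead2 fell by 0.49 ± 0.16 (limma adjusted p = 0.0492) with overlapping groups, and Tead3 and Tead4 did not pass the test. With libraries scaled to a common sum, 4 genes of the list were lower and 6 were higher.

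Other targets of YAP and TAZ split in direction. Of 18 tested (Ankrd1 and Foxf2 were under the filter), 5 rose and 3 fell, beside 11.7% and 18.6% of all genes tested. The median was 0.21, beside -0.02 over all genes tested. F3, the coagulation initiator tissue factor, rose from 12.7 ± 0.393 to 18.95 ± 2.04 FPKM (0.56 ± 0.09, limma adjusted p = 0.00200). Asap1, a GTPase-activating protein of the cell cortex, rose by 0.52 ± 0.10, and Nt5e, the ectonucleotidase CD73, by 0.80 ± 0.23, a call lost under 7 of 20 alternatives. Dock5, a guanine nucleotide exchange factor, fell by 0.34 ± 0.08. Amotl2 fell by 0.40 ± 0.12 and Ccdc80 by 0.43 ± 0.12 (261 ± 30.7 and 193 ± 19.2 FPKM), while Axl rose by 0.66 ± 0.22 and Gadd45b by 0.33 ± 0.10. The list summed to 375 to 438 FPKM in WT, against 354 to 379 in the KO-labelled group. Without both WT1 and WT2, 1 target was higher and none lower, and scaled to a sum of 1000000, 7 were higher and none lower. The table of RefSeq promoters (GRCm38.p6) matched 2 of the 6 members, Ccn1 and Ccn6. The 250 bases before the start site of Ccn1 (chr3:145649986-145650235, minus strand) are shown because they hold the letters of a TEAD core. Capitals mark, in order, the TEAD core CATTCC, the reverse strand of the CRE-like core TGACGT, and the TATA box TATAAA:
Ccn1: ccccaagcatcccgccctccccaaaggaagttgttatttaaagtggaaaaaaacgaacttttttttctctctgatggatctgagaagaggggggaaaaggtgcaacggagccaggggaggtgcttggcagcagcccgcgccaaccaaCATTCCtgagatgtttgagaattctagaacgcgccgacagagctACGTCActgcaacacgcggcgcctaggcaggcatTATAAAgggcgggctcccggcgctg
They begin 103, 59 and 25 bases before the start site. Of 32544 promoters with a window of 300 bases (250 before and 50 after the start site), searched on both strands, 14.6% held the TEAD core, 7.55% the CRE-like core and 13.6% the TATA box. The Ccn6 promoter held none of these letters in that window. These matches are descriptions of letters, not of bound sites.

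Response genes of TGF-beta and of Wnt, signals known to induce CCN genes, were also mixed. Among 21 TGF-beta response genes, 5 rose and 6 fell (median 0.09), beside 11.7% and 18.6% of all genes tested. Smad7, the feedback inhibitor of the pathway, fell from 5.41 ± 1.27 to 2.48 ± 0.232 FPKM (-0.96 ± 0.14, limma adjusted p = 0.00177). Postn, the matricellular protein periostin, fell by 1.24 ± 0.23, and Bhlhe40, a clock-linked repressor, by 0.98 ± 0.11. Tgfbr3, the co-receptor betaglycan, rose by 0.73 ± 0.10. Of 10 Wnt response genes tested, 2 rose and 2 fell (median 0.02), to be read beside the same shares. Myc, a growth regulator, rose from 3.44 ± 0.986 to 12 ± 1.77 FPKM (1.68 ± 0.17), and Tcf7, a Wnt effector factor, from 0.364 ± 0.109 to 1.03 ± 0.254 FPKM. Nkd1, an inhibitor of the pathway, fell by 0.76 ± 0.14, and Ccnd1, the gene of cyclin D1, by 0.32 ± 0.09, a call that was lost under 11 of 21 alternatives. Sum scaling gave other counts: 9 TGF-beta response genes were higher and 3 lower, and 4 Wnt response genes were higher and 1 lower.

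Immediate early genes are the class to which Ccn1 belongs. Of 21 tested, 1 rose and 2 fell, with a median of 0.00, beside 30.4% of all genes called in either direction. The difference from all genes was not tested. Ier2 (-0.50 ± 0.11) and the antiproliferative gene Btg2 (-0.53 ± 0.12) fell, and Fosl2, of the AP-1 factors, rose by 0.56 ± 0.15. With sum scaling, Ier2 and Btg2 lost their calls, with 3 genes higher and none lower. Genes with an IGFBP module, the module at the start of every CCN protein, were counted as another set. Of 12 tested, 1 rose and 4 fell (median -0.20), where 11.7% of all genes tested rose and 18.6% fell. Htra1, a secreted serine protease, fell from 87.2 ± 4.43 to 47.2 ± 4.64 FPKM (-0.88 ± 0.09, limma adjusted p = 0.000312), and its relative Htra3 rose from 92.2 ± 7.40 to 139 ± 7.26. Esm1, an endothelial proteoglycan, fell by 0.98 ± 0.20 and Igfbp5 by 0.54 ± 0.14. With libraries scaled to a common sum, 1 was higher and 2 were lower, and Igfbp5 lost its call.

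**Figure D4:**
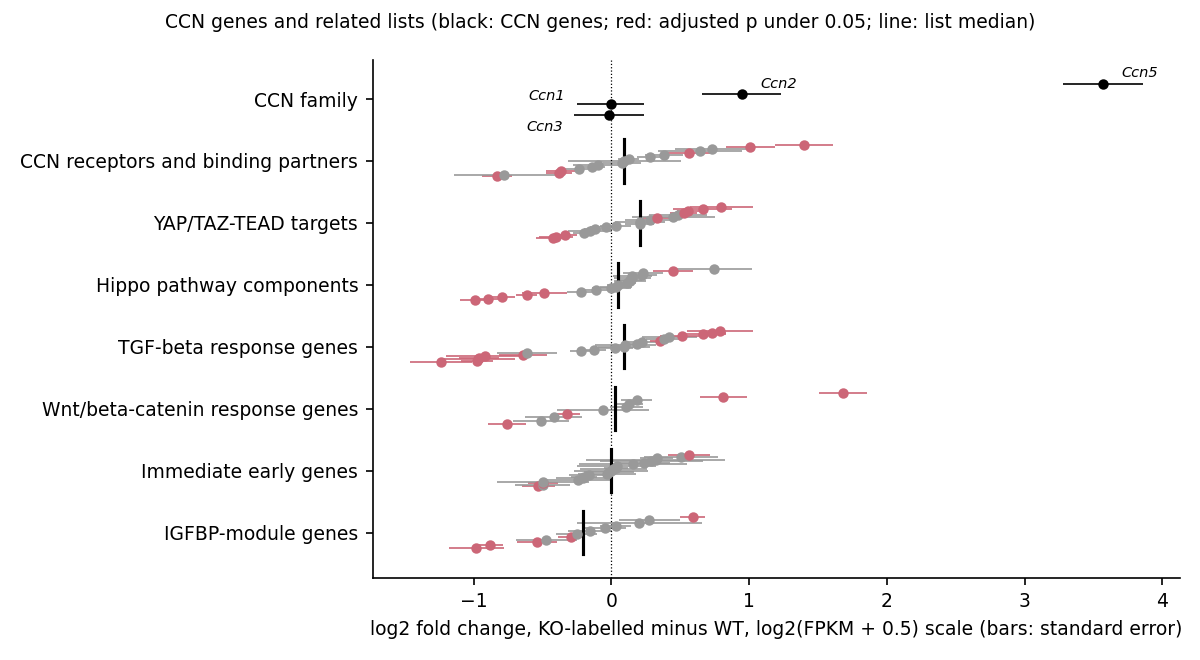
Log2 fold change (KO-labelled minus WT, log2(FPKM + 0.5) scale, bars show the limma standard error) of the 4 CCN genes in the fit, in black, and of tested genes on 7 related lists, in red where the adjusted p was under 0.05 and in grey otherwise; vertical lines are list medians. Ccn5 lies at 3.57, beyond all genes on the other lists drawn, of which Myc at 1.68 is the highest.

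For each member in the fit, the 3 genes with the most similar profile were found by the root mean square difference of log2(FPKM + 0.5) over the 8 libraries, each gene centred on its own mean, among 12249 named genes. Nearest to Ccn5 were Angpt4 (0.39), an angiopoietin that binds TIE2, Cbr3 (0.40), a carbonyl reductase, and Thbs2 (0.41), the matricellular thrombospondin-2. All of them separated the groups, Thbs2 with 4.05 to 9.39 FPKM in WT, against 55.9 to 78.4 in the KO-labelled group. Angpt4 held 0.0672 to 0.244 FPKM in WT, under the 0.5 added before the log, and 5.59 to 7.66 in the KO-labelled group. Its ratio of means was 42.9, against 12.4 for Ccn5, so its nearness depends on the 0.5 added. Nearest to Ccn2 were Col4a5 (0.23), a basement membrane collagen chain, Sdc4 (0.23) and Hspa1b (0.25), a heat shock protein gene whose reads may be split with its near-identical copy Hspa1a. Nearest to Ccn1 were Slc13a3 (0.13), Agpat4 (0.14) and B3galt4 (0.15), and to Ccn3 Ankrd29 (0.19), Pgm5 (0.20) and Ptges (0.21). No gene was among the nearest of more than 1 member. The libraries share their 2 groups, so a like profile includes a like difference between the groups.

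**Figure D5:**
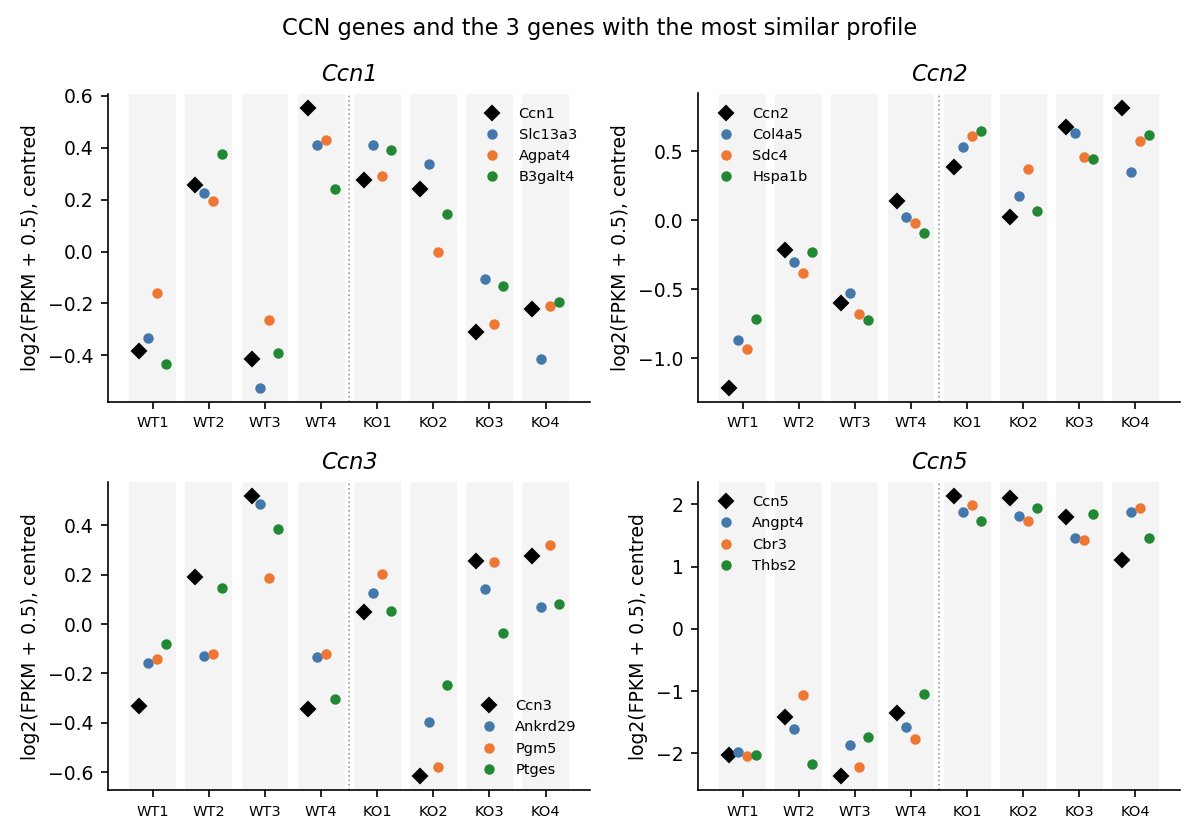
Centred log2(FPKM + 0.5) of Ccn1, Ccn2, Ccn3 and Ccn5 (black diamonds) and of the 3 genes nearest to each (coloured points) in every library, with a dotted line between WT and KO-labelled. Ccn5 and its 3 nearest genes form a low and a high group, while the points of Ccn1 and Ccn3 vary as much within groups as between them.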

How the data were processed

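The authors deposited 1 table of FPKM values with a column per library. The submitters' processing notes name HISAT2 2.0.5, featureCounts and mm10. No annotation release, strand setting or FPKM denominator is stated in the sources used here. The protocol in the labels describes poly(A) capture and random hexamer priming. A reference symbol was found for 28255 gene IDs (99.9%). Members and gene lists were chosen with earlier results of these data known.

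The test was limma 3.58.1, run in R 4.3.3 on log2(FPKM + 0.5), with a mean-variance trend and robust empirical Bayes moderation, two-sided, over all 8 libraries with no covariate. Benjamini-Hochberg adjustment ran over the 14400 genes with a mean of at least 0.5 FPKM, and calls were made at an adjusted p under 0.05. Such fold changes understate the change of low genes. "Rose" and "fell" are used only of called genes. Errors beside means are SDs, and those beside log2 values are limma standard errors.

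Reads were recovered from the steps of FPKM values under 0.1 and GENCODE M21 exon lengths. Of values between 0.5 and 200 reads, 97.9% lay within 0.02 of a whole read. The labels give no batch.

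From each list, up to 4 called genes with the smallest adjusted p were named, or the 2 most abundant where none was called, plus the 2 most abundant of each cell type list. Genes named beyond this rule, such as Lrp1, Notch1, Amot, the TEAD genes, Amotl2, Ccdc80, Axl, Gadd45b, Itgb1 and Itgb5, were chosen after their values were seen. Some genes are on 2 lists (Dcn, Col1a1, F3, Itgam, Igfbp3 and Crim1). The alternatives are those of the closing section. Tables were made with pandas 2.3.3, numpy 2.4.6 and scipy 1.17.1 under Python 3.11.15. Plots were drawn in matplotlib 3.10.9.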

Additional observations from a re-analysis of the deposited data

Results flagged for a closer look

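In 15 of 140 groups of 4 libraries checked, 1 library lay far from the other 3 relative to the group's range, and chance gives about 1 in 20 such groups. None of them concerned a CCN gene or Cul3. WT4 stood high among WT for 4 macrophage markers, with 4.04 FPKM of Fcgr1, 16.1 of Cd14, 785 of Lyz2 and 208 of C1qb, and KO4 was low for Aif1 (4.93 against 8.87 to 9.56 FPKM). WT2 stood high for the liver genes Apoa2 (186 FPKM) and Fabp1 (69.9) and for the epididymis gene Spink8 (18 against 0.0478 to 1.70). KO1 stood high for the epididymis genes Crisp1 (203 against 0.200 to 7.92 FPKM) and Spink8 (66.8 against 0 to 2.58), and for Fabp1 (1.55) and Esam (23.7). The others were Htra1 in KO4 (54.1 FPKM), Sema3c in KO2 (9.91) and Rgs5 in WT3 (81.2). For the libraries concerned, the log2 difference of Ccn5 was 3.45 without KO1, 3.71 without WT4 and 3.79 without KO4.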

How the results depend on the processing

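The log2 difference of Ccn5 was 3.37 to 3.91 over 21 alternatives, which describes a member chosen on this contrast. The call of Ccn2 (0.95) was lost with no filter on low values (0.95), without WT1 and WT2 (0.70) and by voom without a filter (1, chosen after the data were seen), and the fits without 1 library gave 0.70 to 1.15. The number of CCN members called was then 1 in place of 2, both with no filter and without WT1 and WT2, and 1 to 2 without 1 library. By voom without a filter it was 2, Ccn5 and Ccn4. Ccn1 (-0.01) changed sign when scaled to a sum of 1000000 (0.27), with median-of-ratios scaling (0.00549), with quantile normalization (0.18) and with array weights (0.13), and was -0.15 to 0.18 without 1 library. Ccn3 (-0.02) changed sign when scaled to a sum of 1000000 (0.25) and was -0.13 to 0.19 without 1 library. For Ccn4 the untested difference of 0.42 was 0.89 with a pseudocount of 0.1, 1.07 scaled to a sum of 1000000 and 1.29 by voom without a filter. For Ccn6 the 0.13 was 0.41, 0.53 and 0.95 under the same settings and -0.03 without WT1 and WT2.

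Over all genes, 1689 were called higher and 2683 lower. Scaled to a sum of 1000000 the counts were 4226 and 1190, and the median over all genes was 0.24 on the log2 scale in place of -0.02. Without WT1 and WT2 they were 722 and 1036, and without 1 library 1089 to 1937 and 1858 to 2803. No pairing of the libraries by replicate number was seen, though correlations of this kind cannot exclude one. Deviations from the group means correlated at -0.06, -0.13, 0.17 and -0.32 across genes for numbers 1 to 4, and only KO3 correlated best with its own number. A fit with the replicate number as a block called 1113 genes higher and 1995 lower. List counts moved by over 1.5 times under at least 1 alternative in 22 of 30 cases. Members called higher ranged from 2 to 7 for the receptors (3), 1 to 7 for the YAP and TAZ targets (5), 0 to 6 for the Hippo components (1), 2 to 9 for the TGF-beta genes (5), 1 to 4 for the Wnt genes (2) and 0 to 5 for the immediate early genes (1). Those called lower ranged from 1 to 3 (3), 0 to 4 (3), 4 to 5 (5), 3 to 7 (6), 1 to 3 (2) and 0 to 3 (2). Macrophage markers called higher ranged from 2 to 12 (6), adipocyte markers called lower from 4 to 11 (11) and liver markers called lower from 0 to 10 (4). Of 54 called genes outside the family that were named by the rule for lists, 19 lost the call under at least 1 alternative and 0 changed sign. Signs changed only for named genes without a call. Upk3b (0.31) was -0.38 without WT1 and WT2 and -0.00798 to 0.56 without 1 library. Rgs5 (-0.27) was 0.006 scaled to a sum of 1000000. Crisp1 (1.59) was -0.13 to 2.60 without 1 library. Spink8 (0.41) was -1.14 to 1.47 without 1 library, -0.34 by voom and -0.35 by voom without a filter.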
